A study of Mus musculus with 3 samples.

Results

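The enzymes of the citrate cycle and the carriers that feed it were examined in mouse heart ventricle as a list of 32 genes, each found by its gene name in the deposited transcript annotation. Of these, 31 had a locus with a protein-coding RefSeq transcript, out of 20117 such mRNA loci and 48626 loci in all. No locus carried the name Slc25a4, which encodes the main ADP/ATP carrier of adult muscle, and this gene was not analysed here. Me2 had an additional unspliced locus on the opposite strand, at 0 FPKM in both embryonic libraries and 0.519 FPKM in the adult one, which was left out of the counts. None of the 31 loci joined more than 1 gene, and all 31 reached at least 1 FPKM in every library.

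The samples were total RNA from ventricles of C57BL/6 mice at the embryonic days E10.5 and E13.5 and at the age of 8 weeks (adult), with no further treatment or allele named. Each stage was represented by 1 stranded paired-end library, so stage differences could not be set against the spread of replicates, and p-values are not reported. Where 3 values are listed for a gene, they stand in the order E10.5, E13.5, adult. How many hearts went into a library is not given in the sources used here. The values are FPKM, the number of fragments scaled to exon length in kilobases and to library size, so they can be compared between genes as levels per length. A stage difference below is a difference of log2(FPKM + 1), in which 1 added FPKM damps the change of low genes, and it was counted when it reached 1 in size.

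The citrate cycle is the loop of reactions in the mitochondrial matrix that oxidizes acetyl groups from sugars, fatty acids and ketone bodies and passes the electrons to the respiratory chain. Its intermediates, phosphate and nucleotides cross the inner membrane through the SLC25 carriers, and the malate-aspartate shuttle moves reducing equivalents from cytosolic NADH inward. The heart is known to shift after birth from a largely glycolytic supply of energy to fatty acid oxidation, for which cycle capacity is needed.

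The genes were already among the strongly expressed ones in the embryo and took a larger part of the mRNA signal in the adult. Their summed FPKM made up 1.02%, 0.980% and 2.20% of all mRNA FPKM. The median gene of the list stood at the 95.1, 94.3 and 98.2 percentile of the 12569 mRNA loci that reached 1 FPKM in at least 1 library. The level medians over the 31 genes were 86.6, 94.96 and 184 FPKM, against 9.92, 10.3 and 6.94 FPKM over those 12569 loci. Idh2, Mdh1 and Slc25a3 were the 3 highest in every library, while Pcx, Slc25a22 and Slc25a42 stayed under 10 FPKM in each.

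**Figure D1:**
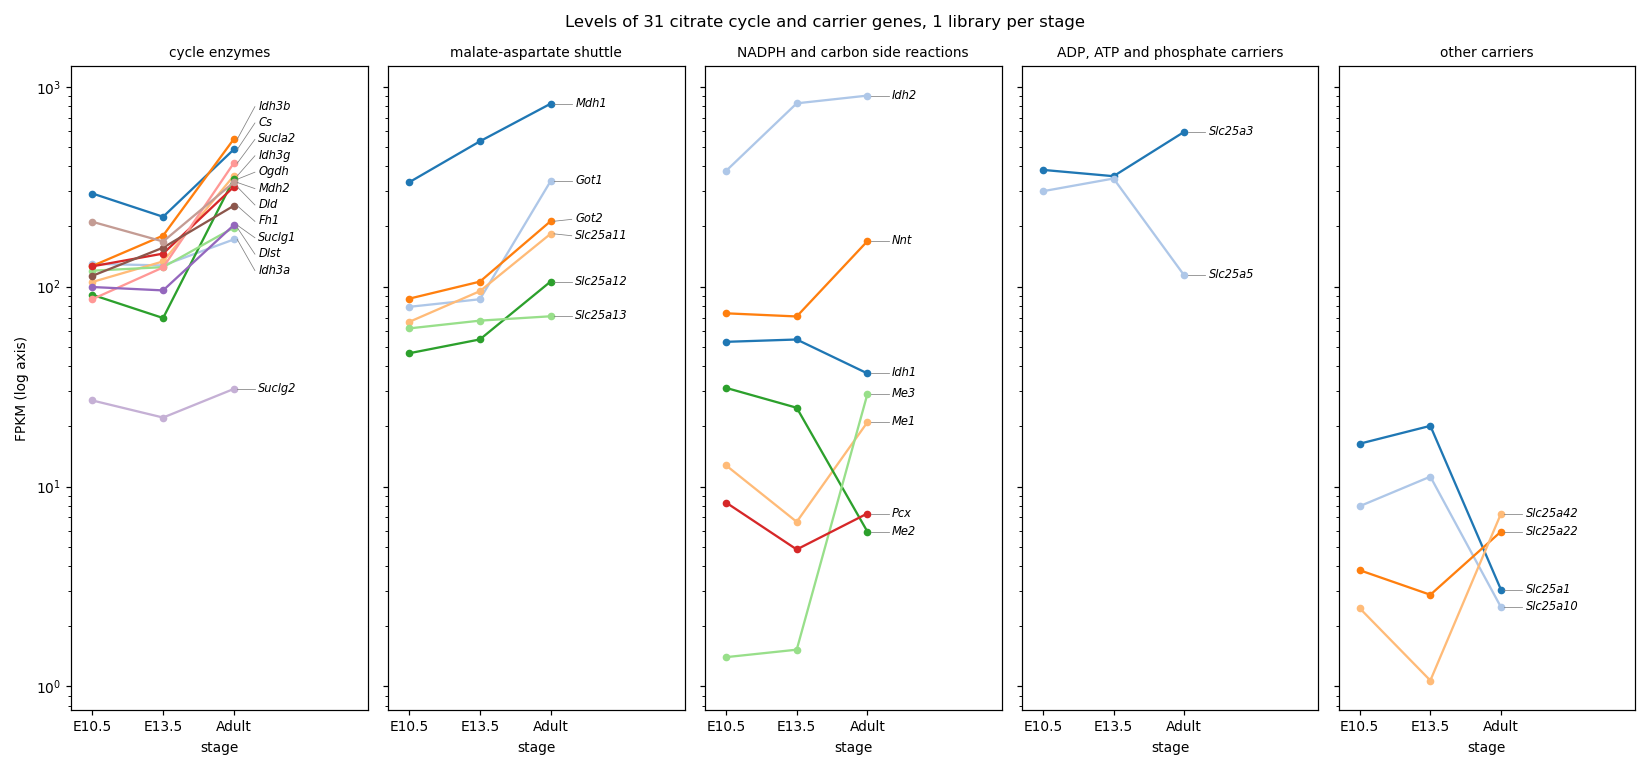
FPKM (log axis) of the 31 genes for the 3 stages, with 1 panel per role and each point from 1 library, so there are no error bars. All 12 cycle enzymes and all 6 shuttle genes end higher in the adult than at E10.5 as deposited (7 and 5 of them relative to cardiomyocyte markers). Of all mRNA loci, 35.3% are higher as deposited. Slc25a5, Slc25a1, Slc25a10, Me2, Idh1 and Pcx end lower as deposited.

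From E10.5 to the adult, 25 of the 31 genes were higher and 6 were lower, and 16 exceeded E10.5 by at least 1 as a log2(FPKM + 1) difference. Among the 12569 mRNA loci, 35.3% were higher and 14.8% were higher by 1 or more. In the opposite direction 4 genes were lower by 1 or more, beside 27.3% of all mRNA loci. By 2 or more, 4 genes were higher and 2 lower, beside 5.59% and 8.1% of all mRNA loci. The median difference over the genes was 1.02, against -0.40 over all mRNA loci, and 26 of 31 genes lay above that -0.40.

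From E13.5 to the adult, 12 genes were higher and 4 lower by 1 or more, beside 13% and 32.1% of all mRNA loci, with medians of 0.95 for the genes and -0.50 for the loci. The adult library is shared by both comparisons, so they are not independent. Between the embryonic stages the genes moved little, with a median difference of 0.07 against 0.17 over all mRNA loci. Only Idh2 was higher by 1 or more at E13.5 than at E10.5, where 5.89% of all mRNA loci were higher and 4.85% lower by that much.

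How far the adult differed depended on the quantity held equal between libraries. With median-of-ratios scaling, which sets a typical mRNA locus equal, 21 genes were higher and 3 lower by 1 or more against E10.5, beside 20.5% and 17.8% of all mRNA loci. Against E13.5 they were 24 and 4, beside 21.1% and 18.6% of the loci. When the libraries were instead scaled to the geometric mean of 8 cardiomyocyte markers (Tnnt2, Actc1, Myl2, Myl3, Tnnc1, Actn2, Mybpc3, Ryr2), a scaling chosen after the values were seen, 5 genes were higher and 5 lower in each comparison with the adult. From E13.5 to the adult, 7.67% of all mRNA loci were higher and 49.4% lower by 1 or more with this scaling. The median difference from E10.5 was then 0.12 for the genes and -1.14 for all mRNA loci. Of these loci, 7.93% were higher and 55.2% lower by 1 or more than at E10.5. Of the 25 genes that were higher, 9 turned to lower relative to these markers, namely Cs, Idh3a, Dlst, Suclg2, Mdh2, Slc25a13, Me1, Slc25a3 and Slc25a22. The markers themselves did not move alike. Tnnt2 was at 626, 1522 and 3148 FPKM and Ryr2 at 73.1, 18.8 and 281 FPKM. Mybpc3 was at 245, 383 and 286 FPKM and Actc1 at 4487, 4646 and 3353 FPKM. Values relative to the markers therefore depend on which markers were chosen.

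The makeup of the ventricles also differed between stages. The summed level of the 8 cardiomyocyte markers was 15685, 23148 and 23196 FPKM, and the adult exceeded E10.5 in 7 of the 8. The 3 embryonic globins of primitive red cells summed to 6727 and 16305 FPKM in the embryo and 3.05 FPKM in the adult, and 5 proliferation genes to 261, 309 and 3.44 FPKM. The red cell loci of the definitive lineage summed to 541, 3086 and 1624 FPKM. Macrophage markers (5 of 5 higher in the adult than at E10.5) summed to 5.12, 30.9 and 104 FPKM. Smooth muscle markers (1 of 4 higher) summed to 1311, 1226 and 187 FPKM. Most of that was Acta2 (1090, 836 and 124 FPKM), while Myh11 was at 0.112, 0.893 and 18.1 FPKM. Fibroblast markers (4 of 6 higher) summed to 244, 465 and 501 FPKM. Among them Dcn was at 49.5, 75.9 and 351 FPKM, but Tcf21 at 18.3, 22.9 and 1.79 FPKM. Endothelial markers (2 of 5 higher) summed to 260, 185 and 265 FPKM. The adipocyte markers stayed under 1 FPKM in sum, and Plin1 was listed at 0 in every library. The part of these shifts in the differences of the cycle genes was not tested, and in bulk tissue fewer cells of a type and less RNA per cell cannot be told apart. The sex of the animals was not compared between stages. Its part in the differences, also in those of the X-linked genes Idh3g and Slc25a5, was not tested.

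**Figure D2:**
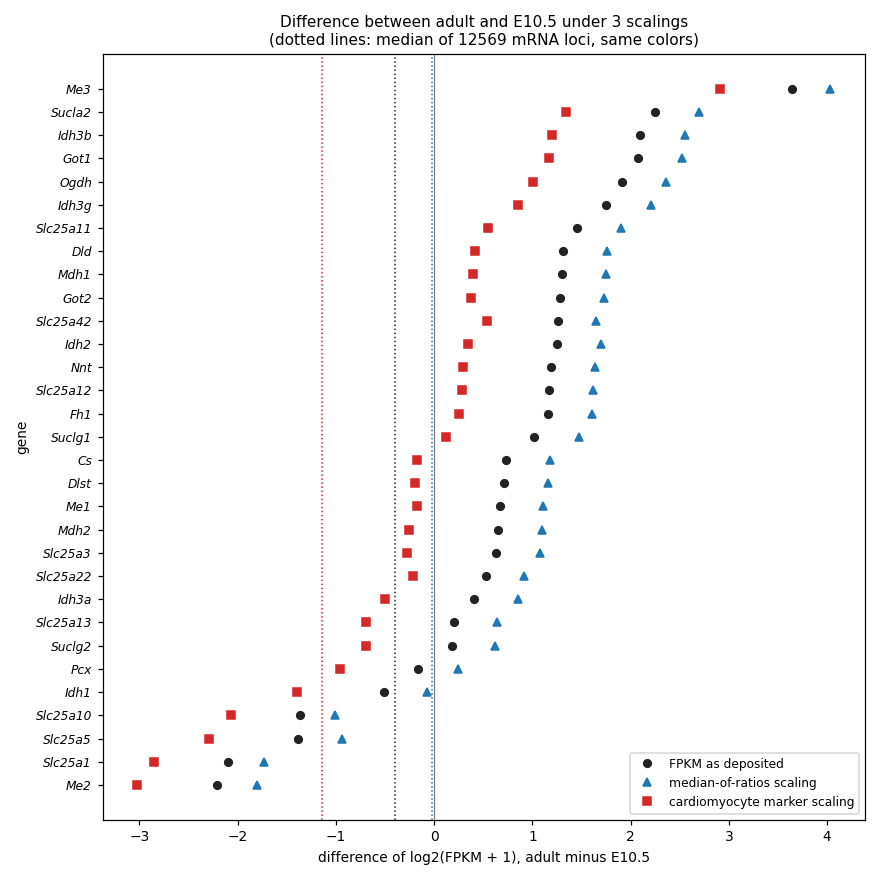
Difference of log2(FPKM + 1) between adult and E10.5 for each of the 31 genes under 3 scalings of the libraries, each point from 1 library per stage, with dotted lines at the median over 12569 mRNA loci under the scaling of the same color. Relative to the cardiomyocyte markers 16 genes stay above 0, and Me2, Slc25a1, Slc25a5, Slc25a10 and Idh1 lie below 0 under every scaling shown.

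All 12 cycle enzymes of the list were higher in the adult than at E10.5 as deposited, 7 of them by 1 or more. Of all mRNA loci, 35.3% were higher and 14.8% by 1 or more. Relative to the cardiomyocyte markers 7 cycle enzymes were higher. The median difference of the cycle enzymes was 1.09 as deposited and 0.19 relative to the markers. Citrate synthase (Cs, chr10:128337832-128362479 in mm10, the build of all positions given, + strand), which joins acetyl-CoA to oxaloacetate at the entry of the cycle, was at 292, 224 and 486 FPKM. Its difference from E10.5 was 0.73, and with the cardiomyocyte scaling it was -0.17. The enzyme was thus strongly expressed in the earliest heart examined and lowest at E13.5.

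NAD-dependent isocitrate dehydrogenase is built from a catalytic alpha subunit and the beta and gamma subunits. The alpha subunit gene Idh3a was at 130, 128 and 172 FPKM, a difference of 0.40 between E10.5 and the adult. Idh3b (chr2:130279309-130284607, - strand), for the beta subunit, was at 127, 180 and 547 FPKM, a difference of 2.10 or 4.31-fold. Idh3g (chrX:73778963-73787271, - strand), for the gamma subunit, was at 106, 134 and 358 FPKM, a difference of 1.75. The alpha and beta levels were nearly equal at E10.5 and far apart in the adult. Within a library, where scaling has no effect, the ratio of Idh3a to Idh3b was 1.02, 0.709 and 0.315, and that of Idh3g to Idh3b was 0.831, 0.743 and 0.655, pairs that were chosen after the values were seen. Idh3b overlaps Nop56 on the opposite strand, which was at 43.8, 47.0 and 10.9 FPKM and so was lower in the adult. Idh3g likewise overlaps Ssr4, at 75.0, 110 and 55.0 FPKM, and Dld overlaps Lamb1, at 74.7, 41.9 and 22.5 FPKM. The kit keeps the strand, but whether the quantification used it is not given in the sources used here.

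The alpha-ketoglutarate dehydrogenase complex has a decarboxylase, an acyltransferase and a dehydrogenase component. Ogdh (chr11:6291597-6359094, + strand), the decarboxylase, was at 91.0, 69.7 and 345 FPKM, a difference of 1.91 from E10.5 and 2.29 from E13.5. Dlst, the acyltransferase core, was at 120, 125 and 197 FPKM, a difference of 0.71 (-0.19 with the cardiomyocyte scaling). Dld, the dehydrogenase that also serves the pyruvate and branched-chain complexes, was at 126, 146 and 316 FPKM, a difference of 1.31. The decarboxylase was thus the lowest of the components in the embryo and the highest in the adult. The ratio of Ogdh to Dlst within a library was 0.757, 0.556 and 1.75, and that of Dld to Dlst was 1.05, 1.17 and 1.60.

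Succinyl-CoA ligase pairs the common alpha subunit Suclg1 with either the ADP-forming beta subunit Sucla2 or the GDP-forming beta subunit Suclg2. Sucla2 (chr14:73552786-73596142, + strand) was at 86.6, 125 and 415 FPKM, a difference of 2.25 or 4.79-fold from E10.5, the largest among the cycle enzymes listed. Suclg2 was at 26.9, 22.1 and 30.8 FPKM, a difference of 0.18 (-0.69 with the cardiomyocyte scaling), and Suclg1 was at 99.6, 95.8 and 203 FPKM, a difference of 1.02. The ADP-forming subunit therefore took a growing part of the beta subunit signal, 76.3%, 84.9% and 93.1% at the 3 stages, and the ratio of Sucla2 to Suclg2 was 3.21, 5.64 and 13.48. The alpha subunit did not keep pace with Sucla2, with a ratio of Suclg1 to Sucla2 of 1.15, 0.767 and 0.490, a pair also chosen after the values were seen.

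Fumarase and malate dehydrogenase close the cycle. Fumarase (Fh1), which hydrates fumarate in the matrix and also acts in the cytosol, was at 113, 157 and 254 FPKM, a difference of 1.16. Mitochondrial malate dehydrogenase (Mdh2), which regenerates oxaloacetate, was at 211, 168 and 332 FPKM, a difference of 0.65 (-0.25 with the cardiomyocyte scaling). As deposited, Mdh2 was lowest at E13.5, like Cs, Ogdh and Suclg2 and, by small margins, Idh3a and Suclg1.

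All 6 genes of the malate-aspartate shuttle were higher in the adult than at E10.5 as deposited, 5 of them by 1 or more. Of all mRNA loci, 35.3% were higher and 14.8% by 1 or more. The median difference of the shuttle genes was 1.29, and 5 were higher relative to the cardiomyocyte markers. Cytosolic malate dehydrogenase (Mdh1, chr11:21556692-21571934, - strand) was at 333, 534 and 822 FPKM, a difference of 1.30. Cytosolic aspartate aminotransferase (Got1, chr19:43499069-43524617, - strand) was at 79.3, 86.5 and 337 FPKM, a difference of 2.07 or 4.25-fold. Its mitochondrial counterpart Got2 was at 87.1, 106 and 212 FPKM, a difference of 1.28. Both cytosolic enzymes ended above their matrix partners per length. The ratio of Got2 to Got1 went from 1.10 and 1.22 in the embryo to 0.631 in the adult, while the ratio of Mdh2 to Mdh1 was 0.634, 0.315 and 0.404. GENCODE names 1 pseudogene after Got2, and how fragments with several mapping places were handled is not given in the sources used here, so the Got2 level is uncertain to that extent.

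The carriers of the shuttle changed places. Slc25a11, which exchanges malate for alpha-ketoglutarate, was at 66.7, 94.96 and 184 FPKM, a difference of 1.45. Slc25a12 (aralar, the aspartate-glutamate carrier known from muscle and brain) was at 46.4, 54.5 and 106 FPKM, a difference of 1.17. Slc25a13 (citrin, the aspartate-glutamate carrier known from liver) was at 61.8, 67.6 and 71.1 FPKM, a difference of 0.20 (-0.69 with the cardiomyocyte scaling). Citrin was the higher of these carriers at E10.5 and E13.5 and aralar in the adult, where it made up 59.9% of their sum after 42.9% and 44.6%. The ratio of Slc25a12 to Slc25a13 was 0.751, 0.805 and 1.49.

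Of the 7 genes of NADPH supply and carbon side reactions, the adult level was above that at E10.5 for 4 and below it for 3. After median-of-ratios scaling 5 were above it, and relative to the cardiomyocyte markers 3 were. As deposited, 35.3% of all mRNA loci were higher. The mitochondrial NADP-dependent isocitrate dehydrogenase Idh2 (chr7:80094847-80115350, - strand) was at 380, 827 and 903 FPKM, the highest adult level of the list. Its larger step lay within the embryo, with a difference of 1.12 from E10.5 to E13.5 and 0.13 from E13.5 to the adult. How flat the later step was depended on the scaling. It was 0.71 with median-of-ratios scaling, 0.46 with scaling to the mRNA sum without globin and mitochondrial loci, and -0.47 with the cardiomyocyte scaling. The embryonic difference was 0.99 with median-of-ratios scaling, and relative to the cardiomyocyte markers it was 0.82. The cytosolic form Idh1 was at 53.0, 54.4 and 36.8 FPKM, a difference of -0.51 between E10.5 and adult (-0.07 after median-of-ratios scaling). The ratio of Idh2 to Idh1 was 7.17, 15.2 and 24.5, and that of Idh2 to Idh3a was 2.92, 6.47 and 5.25, so the NADP-dependent matrix enzyme was above the catalytic subunit of the NAD-dependent one at every stage.

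Nnt, the inner membrane transhydrogenase that makes NADPH from NADH, was at 73.6, 70.9 and 169 FPKM, a difference of 1.19. The labels give the strain as C57BL/6 and the study's methods name C57BL/6 J mice, a substrain known for a deletion of exons in Nnt that leaves no functional protein. Whether these animals carried it was not tested, and a locus level does not show which form was present. Pyruvate carboxylase (Pcx), which makes oxaloacetate from pyruvate, was at 8.31, 4.84 and 7.33 FPKM. Its difference from E10.5 was -0.16 in the deposited scaling and 0.24 after median-of-ratios scaling, so no direction is given. Pcx overlaps Lrfn4 on the opposite strand, which was at 8.91, 18.0 and 2.63 FPKM.

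The malic enzymes, which convert malate to pyruvate, exchanged their order. Me2, the mitochondrial form that can use NAD, was at 31.2, 24.8 and 5.96 FPKM, a difference of -2.21, with an adult level 0.191 times that at E10.5. Me3 (chr7:89632499-89854359, + strand), the mitochondrial NADP-dependent form, was at 1.40, 1.53 and 28.9 FPKM, a difference of 3.64 and the largest of the list. In FPKM itself this was 20.7-fold, and with the cardiomyocyte scaling the difference was 2.91. Me1, the cytosolic NADP-dependent form, was at 12.8, 6.66 and 21.0 FPKM, a difference of 0.67 from E10.5 (-0.18 with the cardiomyocyte scaling) and 1.52 from E13.5. Of the summed FPKM of the malic enzymes, Me2 took 68.8%, 75.2% and 10.7%, whereas Me3 took 3.09%, 4.63% and 51.8%. The sum itself was 45.3, 33.0 and 55.9 FPKM, so it differed less between stages than its parts did. The ratio of Me3 to Me2 was 0.0450, 0.0616 and 4.86, a pair chosen after the values were seen, and that of Me2 to Me1 was 2.44, 3.72 and 0.284.

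**Figure D3:**
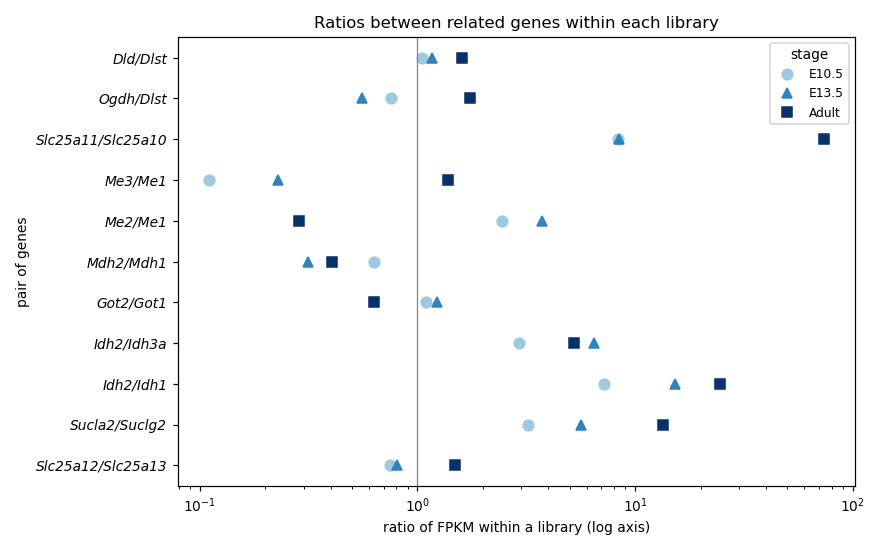
Ratio of FPKM between related genes within each library (log axis), with 1 point for each of the 3 libraries and a line at a ratio of 1. Slc25a11/Slc25a10 at 73.7, Sucla2/Suclg2 at 13.48 and Me3/Me1 at 1.38 are highest in the adult, and Me2/Me1 at 0.284 and Got2/Got1 at 0.631 are lowest there.

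The carriers for phosphate and for adenine nucleotides went opposite ways in the deposited scaling. Slc25a3, which brings phosphate into the matrix for ATP synthesis, was at 384, 357 and 595 FPKM, a difference of 0.63 from E10.5 to the adult (-0.27 with the cardiomyocyte scaling). Slc25a5 (chrX:36795619-36798852, + strand), the ADP/ATP carrier known from proliferating tissues, was at 300.3, 348 and 114 FPKM, a difference of -1.39. The adult was the lowest library for Slc25a5 under every scaling, although with median-of-ratios scaling the difference from E10.5 was -0.94. The ratio of Slc25a3 to Slc25a5 was 1.28, 1.03 and 5.22, a pair chosen after the values were seen. GENCODE names 1 pseudogene after Slc25a5, with the same limit as for Got2, and since Slc25a4 was not analysed here these levels cover adenine nucleotide exchange only in part.

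Among the remaining carriers, those for citrate and dicarboxylates were lower in the adult. Slc25a1 (chr16:17925211-17928219, - strand), which exports citrate to the cytosol where it feeds fatty acid and sterol synthesis, was at 16.4, 20.1 and 3.05 FPKM, a difference of -2.10 from E10.5 and -2.38 from E13.5. Slc25a10, which exchanges malate or succinate for phosphate, was at 7.97, 11.2 and 2.49 FPKM, a difference of -1.36. Both were lowest in the adult. Set against the shuttle carrier of malate, the ratio of Slc25a11 to Slc25a10 was 8.36, 8.47 and 73.7.

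Slc25a42, which carries coenzyme A into the matrix, was at 2.46, 1.07 and 7.31 FPKM, a difference of 1.26 from E10.5 and 2.01 from E13.5. Slc25a22, a glutamate carrier, was at 3.81, 2.87 and 5.95 FPKM, a difference of 0.53 (-0.22 with the cardiomyocyte scaling). The fewest fragments behind a value of these carriers were estimated at about 90.5 for Slc25a42 at E13.5 and 147 for Slc25a22. Over the whole list the fewest were about 70.6, for Slc25a1 in the adult. The 95% counting interval was computed for the log2 ratio of FPKM without the added 1, and reached 0.40 on either side at most. It covers counting error only and not variation between hearts.

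Promoters were compared for letters of known regulators of mitochondrial genes. RefSeq promoters (GRCm38.p6, 250 bases before to 50 after a start) were held for 28 of the 31 genes. On both strands, TCAAGGTCA, the extended binding element of the oestrogen-related receptors, was in none of the 28 and in 0.333% of 9309 expressed mRNA genes. TGCGCATGC, a core of the nuclear respiratory factor 1 site, was in 1 gene or 3.57% (Ogdh), beside 3.35% of expressed genes. CCGGAAG, bound by ETS factors including GA-binding protein, was in 4 genes or 14.3% (Idh3b, Idh3g, Dlst and Slc25a3), beside 18.9% of expressed genes. CCAAT, the box bound by nuclear factor Y, was in 18 genes or 64.3%, beside 43.0% of expressed genes and 41.1% of all 27025 genes with a promoter. The expressed-gene background was chosen after the values were seen, and the median GC content was 59.8% for the genes and 60.7% for expressed genes.

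CCAAT was found both in genes that were higher in the adult and in genes that were lower. It is shown in the 150 bases before the start of Got1 (337 FPKM in the adult, 79.3 at E10.5) and of Slc25a1 (3.05 FPKM in the adult, 16.4 at E10.5), written 5′ to 3′ on the gene's strand, with capitals marking ATTGG, which reads CCAAT on the other strand. The Got1 stretch is chr19:43524606-43524755 and the Slc25a1 stretch is chr16:17928220-17928369, both on the - strand.
Got1: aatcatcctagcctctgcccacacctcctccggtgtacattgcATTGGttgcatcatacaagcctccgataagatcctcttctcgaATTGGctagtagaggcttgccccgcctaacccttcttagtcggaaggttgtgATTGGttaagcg
Slc25a1: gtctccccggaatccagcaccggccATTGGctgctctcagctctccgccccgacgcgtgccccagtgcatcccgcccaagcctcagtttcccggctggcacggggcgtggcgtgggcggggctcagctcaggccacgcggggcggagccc
The window of Got1 holds 3 such stretches and that of Slc25a1 holds 1. A match of letters is a description and not a bound site.

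Start sites close to the members were also read from the annotation. In 11 of the 31 genes a locus on the opposite strand started within 1000 bp of the gene's start, 5 of them mRNA loci and 6 other loci. The same count over all mRNA loci was not made, so 11 of 31 is not read as a trait of these genes. The mRNA partners were Ssr4 beside Idh3g, Styxl1 beside Mdh2, Wdpcp beside Mdh1, Rnf167 beside Slc25a11 and Pikfyve beside Idh1. Wdpcp was at 6.53, 6.94 and 2.46 FPKM, a difference of -1.12 from E10.5 where Mdh1 had 1.30. Rnf167 was at 17.1, 24.9 and 25.3 FPKM, a difference of 0.54 where Slc25a11 had 1.45, and Pikfyve was at 8.32, 6.53 and 6.49 FPKM, a difference of -0.32 where Idh1 had -0.51. Ssr4 had -0.44 where Idh3g had 1.75, and Styxl1 stayed under 0.1 FPKM in every library.

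The rest of the pathway was read from lists of other genes. Of 28 further genes of the citrate cycle and its feeders, 27 reached 1 FPKM in at least 1 library, and 16 were higher and 4 lower by 1 or more from E10.5 to the adult, beside 14.8% and 27.3% of all mRNA loci, with a median difference of 1.17. With the cardiomyocyte scaling 6 were higher and 6 lower, beside 7.93% and 55.2% of all mRNA loci. Succinate dehydrogenase, which oxidizes succinate and is also part of the respiratory chain, was among them. Its subunits Sdha, Sdhb and Sdhc were higher in the adult by 1.67, 1.17 and 1.11, while Sdhd, a membrane anchor, was at 262, 371 and 341 FPKM, a difference of 0.38 (-0.52 with the cardiomyocyte scaling).

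Around the entry of pyruvate, the largest differences in either direction were those of kinases of pyruvate dehydrogenase. The pyruvate dehydrogenase genes Pdha1, Pdhb and Dlat were higher in the adult by 1.86, 1.24 and 1.17, and the pyruvate carrier genes Mpc1 and Mpc2 by 0.94 and 2.15. Pdk4 and Pdk2, kinases that switch the complex off, were at 6.16, 7.34 and 71.3 FPKM and at 4.79, 4.11 and 42.1 FPKM, differences of 3.34 and 2.90. Pdk3, a further kinase of the complex, was at 103, 106 and 2.38 FPKM, a difference of -4.94. Pdk1, the remaining kinase, added here after its values were seen, was at 49.8, 68.0 and 65.9 FPKM, a difference of 0.40 (-0.49 with the cardiomyocyte scaling). Oxct1, which activates ketone bodies for entry into the cycle, was higher by 2.21. Acly, which splits cytosolic citrate into acetyl-CoA, was at 54.3, 42.2 and 11.5 FPKM, a difference of -2.15, and Pck2, the mitochondrial phosphoenolpyruvate carboxykinase, was lower with a difference of -1.41. Acly was thus lower in the same library as the citrate carrier Slc25a1.

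Of 45 other mitochondrial carriers and outer membrane channels, 37 reached 1 FPKM, and 5 were higher and 6 lower by 1 or more, with a median difference of 0.12. The 5 higher ones are 13.51% of the 37, near the 14.8% of all mRNA loci, and the 6 lower ones are 16.2%, beside 27.3%. With median-of-ratios scaling 10 were higher and 2 lower, beside 20.5% and 17.8% of all mRNA loci. With the cardiomyocyte scaling 3 were higher and 13 lower, beside 7.93% and 55.2% of all mRNA loci. Largest were Slc25a34, an orphan carrier at 1.39, 0.176 and 47.5 FPKM (4.34), Ucp3, an uncoupling protein of muscle at 0.361, 0.0543 and 14.1 FPKM (3.47), and Slc25a20, the carnitine-acylcarnitine carrier that admits fatty acids, at 24.3, 40.6 and 107 FPKM (2.09). Smallest were Slc25a24, a calcium-regulated ATP-magnesium/phosphate carrier at 47.0, 30.9 and 6.62 FPKM (-2.65), Mtch1 (-1.45) and Slc25a37, the iron carrier mitoferrin (-1.23). By their median, the carriers thus lay nearer to all mRNA loci, at -0.40, than the cycle genes did.

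**Figure D4:**
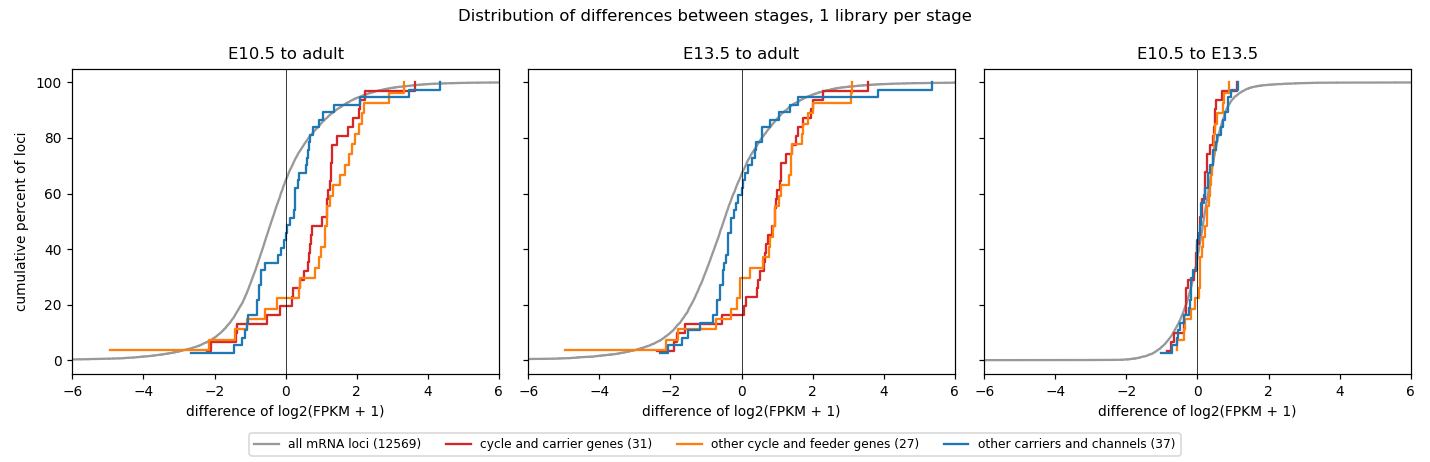
Cumulative percent of loci (vertical axis) by their difference of log2(FPKM + 1) (horizontal axis) in the 3 comparisons, for all 12569 mRNA loci, the 31 genes, 27 other cycle and feeder genes and 37 other carriers and channels, with 1 library per stage. Both sets of cycle genes lie to the right of all mRNA loci in the comparisons with the adult, with medians of 1.02 and 1.17 against -0.40 from E10.5, and the curves run close together between E10.5 and E13.5.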

How the data were processed

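TopHat2 alignment to mm10 and Cufflinks assembly, run once guided by UCSC annotation and once unguided, were done by the authors. The deposited table holds FPKM values, already scaled by the authors to exon length and library size, and the deposited annotation holds the exons of the merged transcripts. Tool versions and options are not given in the sources used here. Of 355 introns of the genes, 352 are also found in GENCODE M21, which uses GRCm38, the same assembly as mm10. An mRNA locus had a transcript equal to a RefSeq protein-coding one, and 406 joined more than 1 gene. The FPKM columns sum to 601115, 808971 and 443471 over all loci, in the order E10.5, E13.5, adult.

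Differences of log2(FPKM + 1) were computed with limits of 1 and 2, with no test, since each stage has 1 library. The smallest steps between low values gave an approximate depth of 13.8, 26.7 and 13.8 fragments per FPKM and kb in the same order. All genes of the list are named, and from the lists of other genes the 3 largest and 3 smallest differences, the remaining cycle enzymes and the entry of pyruvate, except 1 gene that is not reported here. The genes and lists were chosen with earlier results of these data known. Calculations used Python 3.11.15, numpy 2.4.6, pandas 2.3.3 and matplotlib 3.10.9 and were tested on simulated data.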

Additional observations from a re-analysis of the deposited data

How the results depend on the processing

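The alternatives were median-of-ratios scaling, scaling to the mRNA sum without globin and mitochondrial loci, a pseudocount of 0.1, a limit of 2, leaving out loci that join genes, and no filter on low values, with scaling to cardiomyocyte markers added after the data were seen. From E10.5 to the adult, the 16 higher and 4 lower genes became 4 and 2 at a limit of 2. Of all mRNA loci, 5.59% were higher and 8.1% lower at that limit. With the marker scaling 5 genes were higher, beside 7.93% of all mRNA loci, and the median of the genes was 0.12. Between E13.5 and adult, the 12 higher genes became 24 with median-of-ratios scaling and 19 with the mRNA sum, beside 21.1% and 17.2% of all mRNA loci. They became 5 with the markers (median 0.35), beside 7.67% of all mRNA loci. At a limit of 2, 3 were higher and 1 lower, beside 4.41% and 9.88% of all mRNA loci. From E10.5 to E13.5, 0 genes were higher by 1 or more under the other 3 scalings and 0 passed a limit of 2. Of all mRNA loci, 4.34%, 3.36% and 3.87% were higher with median-of-ratios scaling, the mRNA sum and the markers. At a limit of 2, 0.851% of these loci were higher and 0.247% lower. With the mRNA sum, the markers or a pseudocount of 0.1, 1 gene was lower, beside 8.64%, 8.98% and 7.54% of all mRNA loci. Of the other cycle genes, 6 were higher and 6 lower with the markers, and 5 higher and 2 lower at a limit of 2. Of the other carriers, 10 were higher and 2 lower with median-of-ratios scaling, 3 and 13 with the markers, and 3 and 1 at a limit of 2. Beside both lists, 7.93% of all mRNA loci were higher and 55.2% lower with the markers, and 5.59% and 8.1% at a limit of 2. With median-of-ratios scaling these shares were 20.5% and 17.8%. CCGGAAG was in 2 genes within the 250 bases before the start. The cause was not tested. The other 91 of 118 recomputed values of these counts, medians, ratios and motif shares stayed within 1.5-fold. Some of the 91 could not move. The 13 values without joined loci were fixed, because no listed gene lay in a joined locus. The 6 counts without the filter were fixed too, because all 31 genes passed it. The ratios within a library were recomputed only with a pseudocount of 0.1, which changes high levels little. Of the 93 differences of single genes in the 3 comparisons, 89 stayed within that range with median-of-ratios scaling and 40 with the markers. A scaling moves nearly all genes of a comparison by about the same amount, so these counts mostly reflect the size of that shift. They do not show whether single genes are stable. Pcx in the adult against E10.5 counted among the 89, yet it went from -0.16 as deposited to 0.24 after median-of-ratios scaling.

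No paired analysis was possible because there is 1 library per stage. Without replicates, differences between stages cannot be set against the spread between hearts.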
